A study of Mus musculus with 9 samples.

Results

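Lungs of mice exposed to lipopolysaccharide (LPS, a bacterial cell wall component) and cigarette smoke condensate (CSC) while given EA-BN by mouth (EA-BN-H) were compared with lungs of normal control mice (NC). The comparison used 6 of the 9 RNA-seq libraries of the series, 3 from each group, chosen by their group labels, and the 3 libraries of exposed mice without EA-BN (COPD) were set beside them. EA-BN is the ethyl acetate fraction of the leaves of Boehmeria nivea (L.) Gaud., a plant of the nettle family. All samples were lung RNA of male C57BL/6N mice taken on day 15, and the age of the mice is not given in the sources used here. EA-BN-H mice had LPS at 0.5 mg/kg, together with CSC at 12.5 mg/kg, instilled through the nose on days 1, 6 and 13, and took 200 mg/kg of EA-BN in 2% DMSO by mouth each day from day 1 to day 14. COPD mice had the same instillations with 2% DMSO alone by mouth, and NC mice had PBS instilled and 2% DMSO by mouth. No group took EA-BN without the exposure, so in EA-BN-H against NC the exposure and the fraction cannot be told apart. Whether a library came from 1 mouse is not given in the sources used here, so p-values measure the spread between libraries, which may be technical in part.

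LPS is sensed by Toll-like receptors on macrophages and epithelial cells, and the interferons and cytokines that follow switch on distinct sets of genes. Type I interferons act on promoters through the interferon-stimulated response element, and interferon gamma acts through the gamma-activated sequence. The products include antiviral enzymes, GTPases that attack intracellular microbes, the antigen presentation machinery and chemokines that draw monocytes and T cells into the lung.

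Library totals ran from 30171028 to 31932961 estimated reads in EA-BN-H and from 25236827 to 42156219 in NC, and the totals limit the precision of genes with few reads. EA-BN-H replicate 3 stood apart in composition, with 63.5% of its reads on 7SL RNA and 26.1% on nuclear protein-coding genes, against 38.2% to 51.0% and 40.6% to 53.1% in the other EA-BN-H libraries. In NC libraries 34.0% to 40.4% of reads fell on 7SL RNA and 49.6% to 51.2% on nuclear protein-coding genes. NC replicate 1 stood apart in cell markers, with a summed level of 568 CPM over 18 endothelial markers, against 1810 and 1620 CPM in the other NC libraries. Its club and goblet cell markers summed to 32700 CPM, against 17200 and 12200 CPM. All 6 libraries carried the defining lung transcripts: Sftpc, the surfactant protein of alveolar type 2 cells, was at 806, 234 and 398 CPM in EA-BN-H and at 296, 974 and 879 CPM in NC. Levels throughout are CPM, counts relative to the library total after TMM scaling, given in the order of replicates 1, 2 and 3. They describe whole lung, in which a change in the share of a cell type and a change in RNA per cell cannot be told apart.

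Of 18716 genes tested, 194 rose and 17 fell in EA-BN-H lungs at an adjusted p under 0.05 (quasi-likelihood test of edgeR over all 9 libraries), that is, 1.04% and 0.0908% of the genes. The 194 genes had a median log2 fold change of 2.79, which was the same with genes that had no NC read set at their lower bound, and the 17 genes had a median of -1.63. Over all genes tested the median was 0.00. In all 211 genes the EA-BN-H and NC values did not overlap, while over all genes tested the 3 libraries of EA-BN-H were all higher than those of NC in 11.3% and all lower in 8.17%. At the thresholds of the study (a log2 fold change of 1 or more in size, at an unadjusted p under 0.05) 1245 genes were higher and 307 lower, or 6.65% and 1.64%, so that 80.2% of these genes were higher. Scaling by library totals alone moved the median of all genes by -0.38 and that share to 41.0%, and changes below are relative to the median gene. For the 211 genes the direction was the same under every gene-level alternative in which they had a value. Their values did not overlap in these same libraries, so a change of sign was hardly possible.

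The adjusted p of the 211 genes ran from 0.00818 to 0.0496, so that most lay close to the threshold, and the calls rested on all 9 libraries. No gene was called without NC replicate 1, 2 or 3, and none when only the 6 libraries compared were fitted, although 2758, 2511, 2308 and 2167 genes then had an unadjusted p under 0.05. The COPD libraries enter only the filter on low counts, the scaling and the estimate of the spread, yet without COPD replicate 1 or 3 only 1 gene was called in each case, and without COPD replicate 2 there were 139 called higher and 11 lower. Without EA-BN-H replicate 1, 2 or 3 there were 165, 101 and 388 genes called higher and 5, 6 and 31 called lower. DESeq2 called 999 genes higher and 296 lower, and these held 191 of the 194 and all 17. Every statement below that a gene rose or fell carries this dependence.

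**Figure D1:**
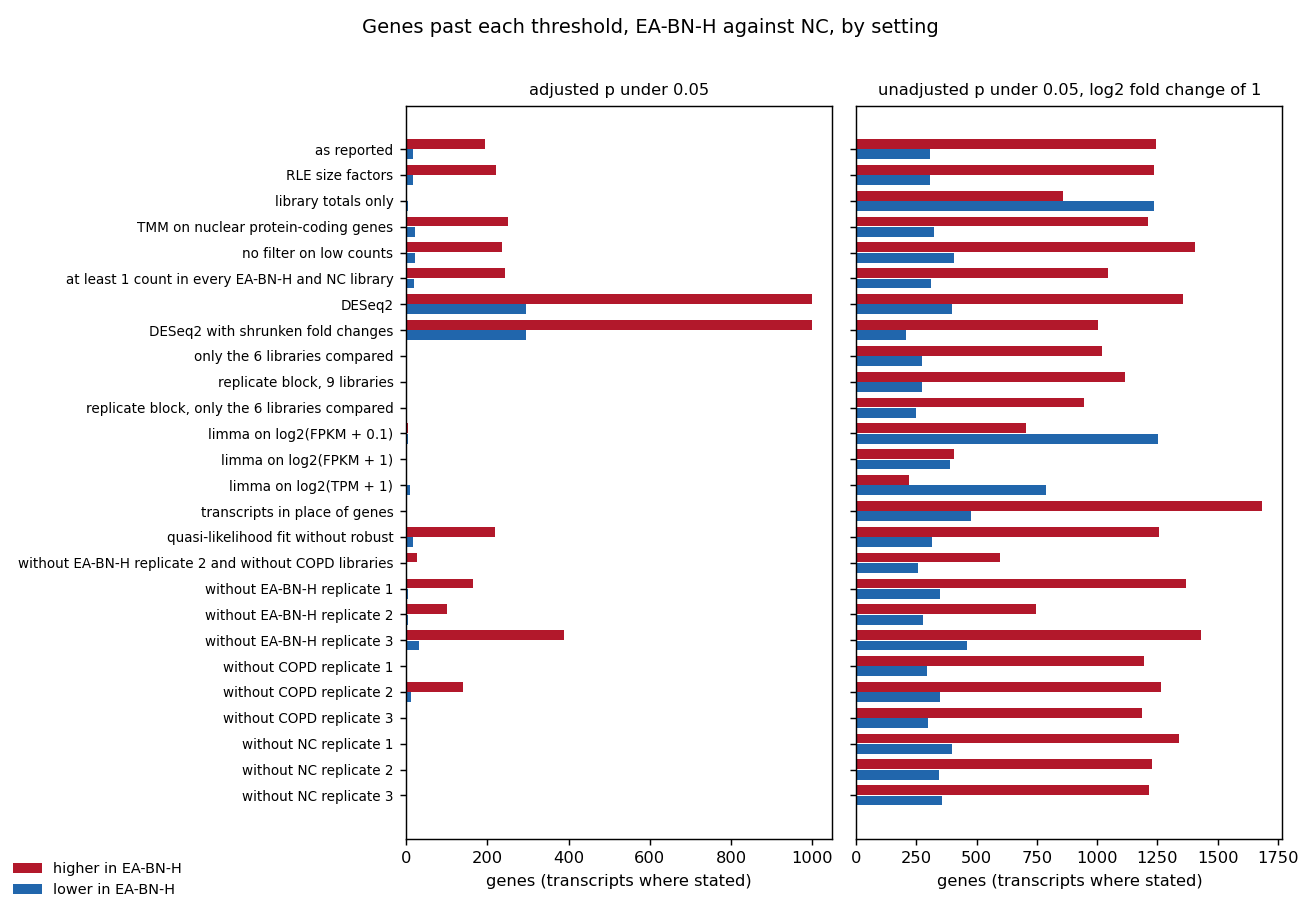
Number of genes (horizontal axis) past the adjusted p (left) and past the thresholds of the study (right) in EA-BN-H against NC under each setting (vertical axis), with genes higher in EA-BN-H in red and lower in blue. As reported there are 194 higher and 17 lower genes, and 0 without any one of the NC libraries, while the counts on the right stay between 219 and 1685 for higher genes.

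The 194 genes that rose were uneven among the EA-BN-H libraries. EA-BN-H replicate 2 was the highest of the 3 in 179 of them (92.3%), against 43.0% of all genes tested, and its value was a median of 2.5 times the mean of replicates 1 and 3. The median coefficient of variation over the 194 genes was 58.9% in EA-BN-H and 28.9% in NC. Without EA-BN-H replicate 2 their median log2 fold change was 2.23. The lowest EA-BN-H value exceeded the highest NC value by a median of 2.78 times in the 181 of these genes with any NC read. In COPD lungs, which share the NC libraries as their reference, the same 194 genes had a median log2 fold change of 2.94 against NC and 174 were called (1.53% of all genes tested were called higher and 0.0641% lower in COPD). The test of EA-BN-H against COPD called 0 of 18716 genes (0.0%) at the adjusted p, with 296 genes at an unadjusted p under 0.05, 4 of them among the 194. By chance alone 936 genes would be expected there, so an unadjusted p under 0.05 in that comparison singles out no gene below.

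GTPases of the guanylate-binding (GBP) and immunity-related (IRG) families, which coat and break down vacuoles that hold microbes, had the highest list median among the interferon genes. All 19 members tested were above NC in each EA-BN-H library, 12 rose and none fell, and the median log2 fold change of the list was 3.77. Igtp (Irgm3), an IRG family regulator, was at 63.4, 334 and 92.2 CPM in EA-BN-H, 144, 72.8 and 162 CPM in COPD and 6.69, 9.34 and 11.8 CPM in NC (log2 fold change 4.14 ± 0.64 SE against NC, adjusted p = 0.0388). Gbp5, which promotes NLRP3 assembly, was at 31.5, 325 and 52.1 CPM in EA-BN-H, 101, 45.8 and 113 CPM in COPD and 2.06, 2.27 and 4.18 CPM in NC, with a log2 fold change of 5.59 ± 0.91 (adjusted p = 0.0388). EA-BN-H replicate 2 was highest in all 19, and the list summed to 903, 6190 and 1740 CPM in EA-BN-H, 2560, 1490 and 3110 CPM in COPD and 169, 289 and 405 CPM in NC. In both genes the lowest EA-BN-H library was still above the highest NC library, and the COPD values lay within the range of the EA-BN-H values. Gbp8, Tgtp1, Gbp10, Gbp11, Gbp2b, Irgm1, Tgtp2, Irgm2, Iigp1 and Gbp3 also rose, with log2 fold changes of 2.98 to 6.04. Members of these families are near-identical in places, so the split of reads between them is uncertain.

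Promoter windows of 4 genes are shown because these genes span the GTPases, the antiviral enzymes and the chemokines that rose. Each runs from 250 bases before to 50 bases after the RefSeq start on GRCm38.p6, 5′ to 3′ on the strand of the gene, with matches to the core of the interferon-stimulated response element (GAAA, any 2 bases, then GAAA) and to the gamma-activated sequence (TTC, any 3 bases, then GAA) on either strand in capitals. Igtp lies at chr11:58199306-58199605 on the plus strand, Gbp5 at chr3:142496684-142496983 on the plus strand, Oas3 at chr5:120777610-120777909 on the minus strand and Cxcl10 at chr5:92348840-92349139 on the minus strand.
Igtp: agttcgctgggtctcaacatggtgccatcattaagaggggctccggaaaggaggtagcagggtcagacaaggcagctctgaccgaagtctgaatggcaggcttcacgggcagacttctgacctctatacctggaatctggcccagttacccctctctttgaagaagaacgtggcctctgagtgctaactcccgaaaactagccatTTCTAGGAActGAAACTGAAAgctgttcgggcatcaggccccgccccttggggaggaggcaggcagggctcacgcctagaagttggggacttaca
Gbp5: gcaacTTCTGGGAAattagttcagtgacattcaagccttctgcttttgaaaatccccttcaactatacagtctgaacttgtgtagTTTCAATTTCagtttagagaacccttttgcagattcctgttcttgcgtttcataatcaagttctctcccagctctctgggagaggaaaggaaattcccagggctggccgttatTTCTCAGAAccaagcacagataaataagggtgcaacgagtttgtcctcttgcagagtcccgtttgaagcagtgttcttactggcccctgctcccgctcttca
Oas3: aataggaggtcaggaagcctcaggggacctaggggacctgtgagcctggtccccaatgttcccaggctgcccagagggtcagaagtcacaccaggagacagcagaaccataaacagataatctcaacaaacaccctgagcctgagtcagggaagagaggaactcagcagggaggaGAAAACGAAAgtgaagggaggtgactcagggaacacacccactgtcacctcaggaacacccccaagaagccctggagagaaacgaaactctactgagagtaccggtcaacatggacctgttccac
Cxcl10: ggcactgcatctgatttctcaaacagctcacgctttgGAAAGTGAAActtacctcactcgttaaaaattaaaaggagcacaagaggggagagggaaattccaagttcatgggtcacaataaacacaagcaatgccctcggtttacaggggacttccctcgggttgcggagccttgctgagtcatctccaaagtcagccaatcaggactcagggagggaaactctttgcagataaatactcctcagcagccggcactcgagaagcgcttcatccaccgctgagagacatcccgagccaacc
Igtp held 1 match of each motif, Gbp5 held 1 and 2, and Oas3 and Cxcl10 held 1 match to the response element core only. Among genes with a window, the core was found in 10 of 11 interferon-inducible GTPases (90.9%), 12 of 22 type I interferon-stimulated genes (54.5%), 29 of 147 genes that rose (19.7%) and 0 of 14 that fell. It was found in 3.93% of the windows of all genes tested and in 3.44% of all windows in the table. The gamma-activated sequence was in 6 of the 11 GTPase windows (54.5%), 13.6% of the windows of genes that rose and 8.57% of those of all genes tested. A match is only a run of letters and no binding was measured.

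Of 32 antiviral genes stimulated by type I interferon 10 rose and none fell, 29 did not overlap between the groups, and the median log2 fold change was 2.37. Oas3, which makes the oligoadenylate signal that activates RNase L, was at 12.6, 65.4 and 14.0 CPM in EA-BN-H, 36.5, 17.8 and 48.9 CPM in COPD and 0.768, 0.698 and 0.751 CPM in NC, a log2 fold change of 5.37 ± 0.73 (adjusted p = 0.0363). The NC libraries were almost equal, and the lowest EA-BN-H library was far above them. Zbp1, a sensor of Z-form nucleic acid that triggers cell death, had a log2 fold change of 4.46 ± 0.69 and Oasl2, a relative of the oligoadenylate synthetases, one of 3.15 ± 0.50 (adjusted p = 0.0388 for both). Oas2, Oas1g, Oas1a, Oasl1, Ifit3, Ifit3b and Dhx58 rose as well. Isg15, a ubiquitin-like modifier, did not pass the test at 8.81, 43.8 and 11.3 CPM in EA-BN-H and 0.636, 0 and 2.25 CPM in NC (adjusted p = 0.0711).

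Of 16 genes of interferon signalling and feedback 4 rose and none fell, with a list median of 1.41. Irf7, the master regulator of type I interferon genes, was at 44.2, 166 and 62.6 CPM in EA-BN-H, 124, 64.0 and 143 CPM in COPD and 4.39, 6.40 and 5.97 CPM in NC (log2 fold change 4.02 ± 0.53, adjusted p = 0.0301). Stat2, part of the factor that type I interferon activates, rose by 2.06 ± 0.36 on the log2 scale (adjusted p = 0.0395). Irf5 rose as well. The receptor and kinase genes of the same list did not pass the test, and Ifngr1 and Jak1 were near 0, at log2 fold changes of 0.08 and 0.13. Of the interferon-inducible p200 and Schlafen genes, 1 of 16 rose, Ifi204, at 4.62 ± 0.80 (adjusted p = 0.0395), while 12 were higher at the study thresholds and the list median was 2.67.

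Of 16 genes for presentation of peptides on MHC class I 8 rose and none fell, with a median log2 fold change of 2.25. The heavy chain gene H2-K1 was at 733, 1310 and 742 CPM in EA-BN-H, 1351, 838 and 1557 CPM in COPD and 135, 222 and 239 CPM in NC (2.22 ± 0.38, adjusted p = 0.0395). EA-BN-H replicates 1 and 3 were alike and replicate 2 was above them, and all 3 were far above NC. Nlrc5, the transactivator of class I genes, had a log2 fold change of 3.08 ± 0.52 and the peptide transporter gene Tap1 one of 2.99 ± 0.52 (adjusted p = 0.0395 for both). H2-T22, H2-D1, H2-T23, Tap2 and the immunoproteasome subunit gene Psmb8 rose too, and reads of the class I genes may be split between similar copies. Of 13 MHC class II genes only Ctss, a cathepsin that cuts the invariant chain, was called (3.53 ± 0.62, adjusted p = 0.0395). The class II list had a median of 1.72 in EA-BN-H and of 2.27 in COPD, each against NC.

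**Figure D2:**
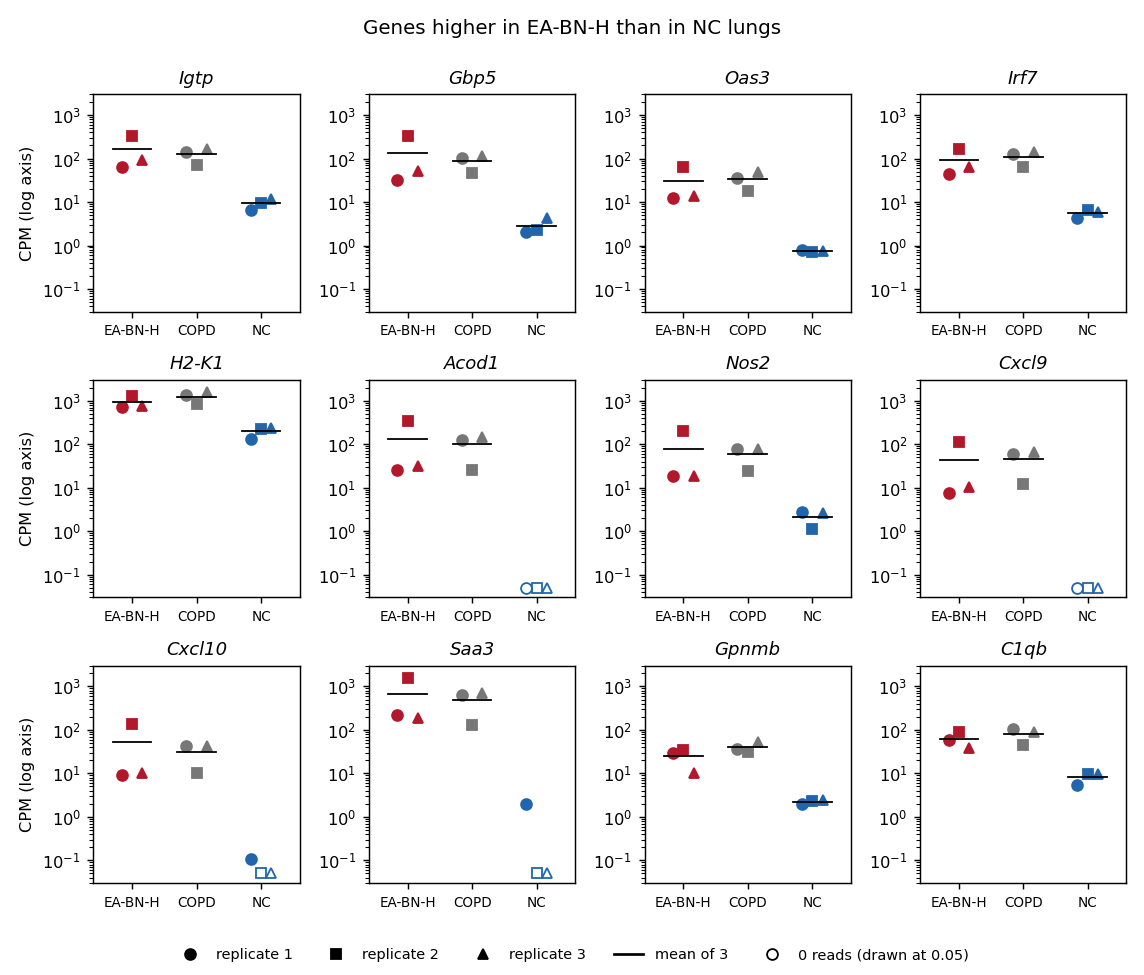
TMM-scaled CPM (vertical axis, log scale) of 12 genes that rose in EA-BN-H against NC, one symbol per library, in EA-BN-H, COPD and NC (horizontal axis). Bars are means of 3, not drawn where a library had 0 reads, and open symbols are libraries with 0 reads. EA-BN-H replicate 2 is the highest EA-BN-H library in each panel, and the lowest EA-BN-H library is above the highest NC library in each.

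Of 12 enzymes of activated macrophages 5 rose and none fell, and the list median was 2.08. Acod1, which makes the antimicrobial metabolite itaconate, had no read in any NC library and was at 25.2, 349 and 31.6 CPM in EA-BN-H and 125, 25.9 and 147 CPM in COPD. With NC set at a floor of 3 reads per library, it was at least 1535-fold higher in EA-BN-H (adjusted p = 0.0395), and at least 323-fold without EA-BN-H replicate 2. Nos2, the inducible nitric oxide synthase, was at 19.0, 198 and 19.0 CPM in EA-BN-H, 76.2, 24.4 and 78.0 CPM in COPD and 2.74, 1.12 and 2.65 CPM in NC (5.18 ± 1.01, adjusted p = 0.0483). Replicates 1 and 3 of EA-BN-H were alike in Nos2 and far below replicate 2, yet above every NC library. Ido1, which breaks down tryptophan, Ch25h, which makes 25-hydroxycholesterol, and Cybb, the catalytic subunit of the phagocyte oxidase, also rose, at 6.06 ± 1.20, 4.07 ± 0.78 and 3.47 ± 0.69 (adjusted p of 0.0481 to 0.0487). The other 7 enzymes were not called, and Ptgs2, an inducible prostaglandin synthase, was at a log2 fold change of -0.15.

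Of 26 chemokine genes 6 rose and none fell, and the median log2 fold change was 3.49, or 3.13 with genes lacking NC reads at their bound. The CXCR3 ligand Cxcl9 was at 7.38, 114 and 10.1 CPM in EA-BN-H, 59.4, 12.0 and 67.0 CPM in COPD and at 0 in the 3 NC libraries, which makes it at least 498-fold higher in EA-BN-H (adjusted p = 0.0455), or at least 99.5-fold without EA-BN-H replicate 2. Cxcl10, another CXCR3 ligand, was at 9.11, 137 and 10.4 CPM in EA-BN-H, 42.7, 10.1 and 42.1 CPM in COPD and 0.110, 0 and 0 CPM in NC (adjusted p = 0.0388). Cxcl3, a ligand of the neutrophil receptor CXCR2, was at 1.01, 9.37 and 0.589 CPM in EA-BN-H and had no NC read. It was at least 41.5-fold higher (adjusted p = 0.0488), or at least 9.1-fold without EA-BN-H replicate 2. Ccl3 and Ccl4, which attract monocytes and T cells, rose with 5 and 11 NC reads in all, but these genes overlap on chromosome 11 and share reads to an unknown degree. Ccl6 rose by 1.40 ± 0.27 on the log2 scale (adjusted p = 0.0483), with EA-BN-H values of 21.7 to 23.4 CPM that lay closer together than those of the other chemokines named, against 7.37, 8.61 and 9.48 CPM in NC. None of 17 cytokine genes was called, although 12 were higher at the study thresholds. Tnf was at 6.15, 49.9 and 4.76 CPM in EA-BN-H and 0, 0 and 0.608 CPM in NC (adjusted p = 0.0602).

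Acute phase and mucosal defence genes gave 5 called of 16, all higher. Saa3, an acute phase apolipoprotein of macrophages and epithelium, was at 219, 1585 and 185 CPM in EA-BN-H, 633, 131 and 722 CPM in COPD and 1.95, 0 and 0 CPM in NC (9.87 ± 1.75, adjusted p = 0.0395). Lcn2, which withholds iron from bacteria, was at 124, 823 and 103 CPM in EA-BN-H and 9.44, 9.49 and 4.65 CPM in NC (5.47 ± 0.96, adjusted p = 0.0395). Retnla, an alternatively activated macrophage and epithelial product, was at 269, 875 and 444 CPM in EA-BN-H, 678, 164 and 463 CPM in COPD and 51.1, 25.8 and 30.7 CPM in NC (3.88 ± 0.61, adjusted p = 0.0388). Dmbt1, a mucosal scavenger receptor protein, had no NC read and was at least 86.3-fold higher, and the glycoprotein gene Lrg1 rose by 2.69 ± 0.46. Among 21 protease and inhibitor genes, the inhibitors Slpi (4.50 ± 0.71), Serpina3g (5.48 ± 0.93) and Serpina3f (6.00 ± 1.13) rose and none fell.

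Markers of monocytes and recruited macrophages rose in 6 of 15 tested, with a list median of 2.44 and all 15 at positive log2 fold changes. Gpnmb, a glycoprotein of lipid-laden macrophages, was at 29.5, 34.8 and 10.4 CPM in EA-BN-H, 36.5, 31.0 and 54.0 CPM in COPD and 2.00, 2.31 and 2.43 CPM in NC (3.48 ± 0.43, adjusted p = 0.0301). Here EA-BN-H replicates 1 and 2 were alike and replicate 3 was the low one. Adgre1, which encodes F4/80, had a log2 fold change of 2.74 ± 0.48 and Ms4a7, a marker of interstitial macrophages, one of 2.37 ± 0.42 (adjusted p of 0.0395 and 0.0397). Cx3cr1 and F10 rose too. The list summed to 578, 1100 and 333 CPM in EA-BN-H, 885, 472 and 991 CPM in COPD and 131, 222 and 189 CPM in NC.

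The complement genes C1qa, C1qb and C1qc, which macrophages make and which form the recognition subunit of C1, rose together with Cfb and the anaphylatoxin receptor genes C3ar1 and C5ar1, 6 of 14 in all. C1qb was at 58.1, 90.7 and 39.4 CPM in EA-BN-H, 106, 46.1 and 89.8 CPM in COPD and 5.31, 9.86 and 9.55 CPM in NC (2.93 ± 0.41, adjusted p = 0.0363). The 3 C1q genes had log2 fold changes of 2.73 to 3.00. Of 6 Fc receptor and sialoadhesin genes tested, Siglec1, Fcgr3 and Fcgr1 rose and none fell. Fcgr1, the high-affinity IgG receptor, was at 6.63, 40.5 and 6.80 CPM in EA-BN-H, 26.0, 6.47 and 30.0 CPM in COPD and 0.593, 0.485 and 0 CPM in NC (5.56 ± 1.09, adjusted p = 0.0483).

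Some of the largest rises lay outside these groups. Ly6i, of the Ly6 family of surface proteins, was at 71.7, 233 and 57.5 CPM in EA-BN-H, 170, 52.2 and 235 CPM in COPD and 2.15, 0.698 and 0.858 CPM in NC (6.58 ± 0.84, adjusted p = 0.0301), and was called in 15 of 25 settings. Mefv, which encodes the inflammasome sensor pyrin, was the only one of 16 inflammasome and pyroptosis genes called (4.23, adjusted p = 0.0487). Sectm1a was at 1.124, 8.51 and 2.84 CPM in EA-BN-H with no NC read, at least 47.2-fold higher, or at least 22.5-fold without EA-BN-H replicate 2. Trim30c was at 3.07, 18.1 and 1.124 CPM in EA-BN-H with no NC read, at least 84.3-fold higher, or at least 23.9-fold without that library. None of 20 pattern recognition receptor genes was called, although 14 were higher at the study thresholds and the list median was 2.03.

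Other leukocyte markers gave few calls. Of 13 alveolar macrophage markers Fabp5, a fatty acid binding protein, rose (2.24 ± 0.41, adjusted p = 0.0426), and the list median was 0.26, with Siglecf at -0.60. None of 8 neutrophil markers tested was called, although 5 were higher at the study thresholds and the list median was 2.85. Csf3r, the receptor for granulocyte colony-stimulating factor, was at 35.5, 141 and 18.3 CPM in EA-BN-H and 1.84, 11.1 and 10.4 CPM in NC (3.07 ± 0.81, adjusted p = 0.0988). Mmp8, a neutrophil collagenase, had a log2 fold change of 5.01 (adjusted p = 0.201). The granule genes Mpo, Ngp and Elane had no read in the 6 libraries, which is not a count of neutrophils. Cd177, known from neutrophils but outside the list and chosen after its values were seen, rose (4.33, adjusted p = 0.0388). It was at 60.1, 181 and 110 CPM in EA-BN-H, where the 14 listed neutrophil markers summed to 45.3, 276 and 27.9 CPM. Which cells the Cd177 reads came from was not tested. S100a8 was at 0.787, 24.3 and 1.55 CPM in EA-BN-H and 0.856, 0.758 and 1.00 CPM in NC. Its log2 fold change of 3.36 became 0.41 without EA-BN-H replicate 2. Among 16 T and NK cell markers the list median was 1.70, 15 had positive log2 fold changes and 6 were higher at the study thresholds. Tbx21, the lineage factor of interferon gamma-producing lymphocytes, rose at 3.00, 8.18 and 4.18 CPM in EA-BN-H against 1.47, 0.940 and 0.787 CPM in NC (2.25 ± 0.44, adjusted p = 0.0487). None of 10 B and plasma cell markers and none of 10 dendritic cell markers was called, with list medians of -0.42 and 0.04. Of 18 cell cycle genes 3 rose: Ccna2 (2.24 ± 0.37), Top2a (1.98 ± 0.37) and Mki67 (2.02 ± 0.40), and all 18 had positive log2 fold changes.

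**Figure D3:**
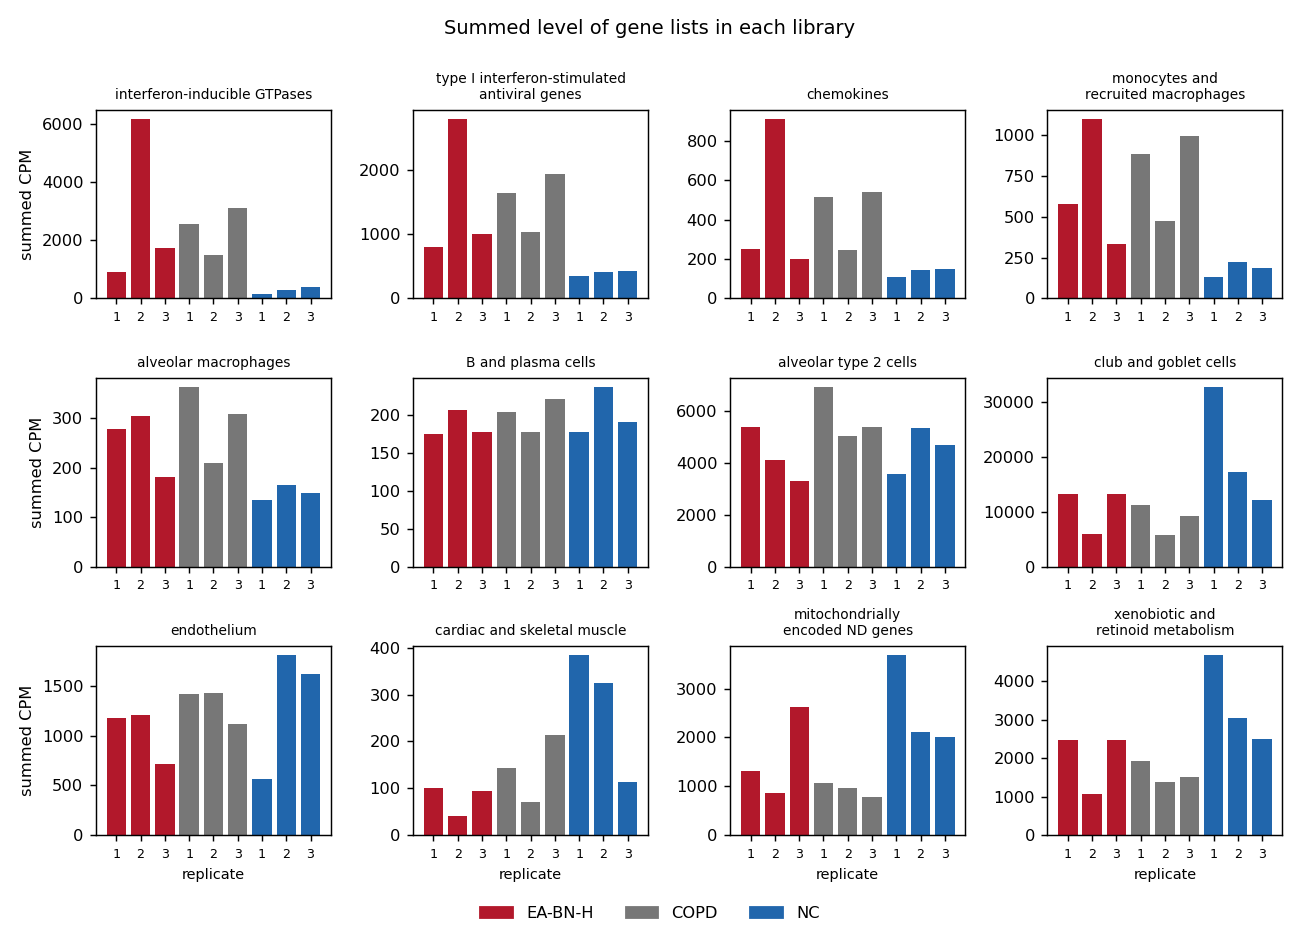
Summed TMM-scaled CPM (vertical axis, from 0) of 12 gene lists in each library (horizontal axis), EA-BN-H in red, COPD in grey and NC in blue. EA-BN-H replicate 2 is highest for the interferon-inducible GTPases, at 6190 CPM, and NC replicate 1 stands apart for club and goblet cells (32700 CPM) and endothelium (568 CPM).

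The 17 genes that fell were more even among replicates, with a median coefficient of variation of 22.4% in EA-BN-H and 21.0% in NC, and EA-BN-H replicate 2 was the highest of its group in only 4 of them. Without that library their median log2 fold change was -1.63. How far the calling itself selects genes with a small spread at smaller fold changes was not tested. In COPD the same 17 genes had a median log2 fold change of -1.08 against NC, and 5 were called. In EA-BN-H against COPD their median was -0.68, and 9 of 17 had an unadjusted p under 0.05, with none past the adjusted p. Over all 18716 genes tested 296 had such a p in that comparison. That comparison uses the same EA-BN-H libraries that chose these genes for low values, so its values here are a description.

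Retinoid handling supplied the largest of these falls among genes with reads in every group. Cyp26b1, which inactivates retinoic acid, was at 2.32, 1.52 and 0.963 CPM in EA-BN-H, 8.72, 19.4 and 6.21 CPM in COPD and 13.9, 34.0 and 26.0 CPM in NC. Its log2 fold change was -3.93 ± 0.54 against NC (adjusted p = 0.0363) and -2.82 against COPD (unadjusted p = 0.000287, adjusted p = 1). The groups EA-BN-H and NC were far apart, and the COPD libraries lay between or within them. Lrat, which stores retinol as its ester, was at 6.11, 3.99 and 8.67 CPM in EA-BN-H, 9.61, 12.4 and 6.07 CPM in COPD and 27.6, 21.0 and 34.9 CPM in NC (-2.16 ± 0.36, adjusted p = 0.0395). Akr1c19, of the aldo-keto reductase family, had no read in the 3 EA-BN-H libraries, against 1.21, 1.18 and 0.501 CPM in NC, and was at least 7.98-fold lower with a floor of 3 reads per library (adjusted p = 0.0426). It had 108 NC reads in all, and COPD libraries were at 1.21, 1.84 and 1.26 CPM. In the list of 20 xenobiotic and retinoid genes Cyp26b1 and Akr1c19 were called, all 20 had negative log2 fold changes and the median was -0.74. The median of the same list was -0.95 in COPD against NC and 0.15 in EA-BN-H against COPD. The list summed highest in NC replicate 1, at 4670 CPM, the library whose club cell markers were also highest, and the part of those cells in the result was not tested.

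Krt23, an epithelial keratin, had the smallest p of the genes that fell. It was at 1.76, 2.74 and 2.94 CPM in EA-BN-H, 4.81, 5.05 and 4.01 CPM in COPD and 14.0, 13.6 and 12.3 CPM in NC (-2.43 ± 0.28, adjusted p = 0.0238), and was called in 16 of 25 settings. Cd36, a fatty acid and scavenger receptor of macrophages and capillary endothelium, was at 73.5, 83.6 and 75.7 CPM in EA-BN-H, 136, 101 and 142 CPM in COPD and 298, 231 and 212 CPM in NC (-1.67 ± 0.22, adjusted p = 0.0301). In both genes the 3 groups did not overlap, with EA-BN-H lowest and NC highest, and EA-BN-H against COPD had unadjusted p of 0.00746 and 0.00852. S100g, the calcium-binding protein calbindin-D9k, was at 0.637, 0.773 and 0.963 CPM in EA-BN-H, 2.30, 2.44 and 1.26 CPM in COPD and 2.72, 5.82 and 4.26 CPM in NC (-2.43 ± 0.47, adjusted p = 0.0481).

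Fos, the immediate early transcription factor, was at 17.8, 18.6 and 25.4 CPM in EA-BN-H, 22.7, 46.0 and 44.3 CPM in COPD and 131, 60.4 and 58.6 CPM in NC (-2.02 ± 0.38, adjusted p = 0.0444). It was the only called gene of 18 immediate early and heat shock genes. Nr4a1, an orphan nuclear receptor, and Dusp1, a phosphatase that ends MAP kinase signals, did not pass the test against NC, at -1.80 and -1.16 (adjusted p of 0.0688 and 0.0730). Against COPD both had an unadjusted p under 0.05, at -1.31 and -1.12 (p of 0.00945 and 0.00213, adjusted p = 1 for both). Dusp1 was at 24.7, 24.6 and 25.3 CPM in EA-BN-H, 35.6, 81.3 and 45.4 CPM in COPD and 53.6, 55.4 and 58.1 CPM in NC, so that the EA-BN-H libraries were nearly equal and below the others.

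Arntl, the core clock activator BMAL1, was at 3.37, 6.01 and 5.83 CPM in EA-BN-H, 7.69, 8.69 and 8.01 CPM in COPD and 16.0, 13.0 and 13.6 CPM in NC (-1.49 ± 0.27, adjusted p = 0.0397). In a list of 18 clock genes that was added after values were seen, it was the only gene called. The list median was 0.23 and 12 genes had positive log2 fold changes. Values did not overlap in 3 genes above NC and 3 below. Clock, the partner of Arntl, was at -0.83 and the repressor genes Per2 and Cry1 at 1.33 and 1.08. None of them passed the adjusted p (0.0688, 0.104 and 0.0849), and their EA-BN-H and NC values did not overlap. They were picked after their values were seen. Per2 was at 105, 54.1 and 115 CPM in EA-BN-H, 40.5, 68.0 and 38.6 CPM in COPD and 50.8, 29.4 and 28.8 CPM in NC. The hour at which the lungs were taken is not given in the sources used here, and its part in these values was not tested.

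**Figure D4:**
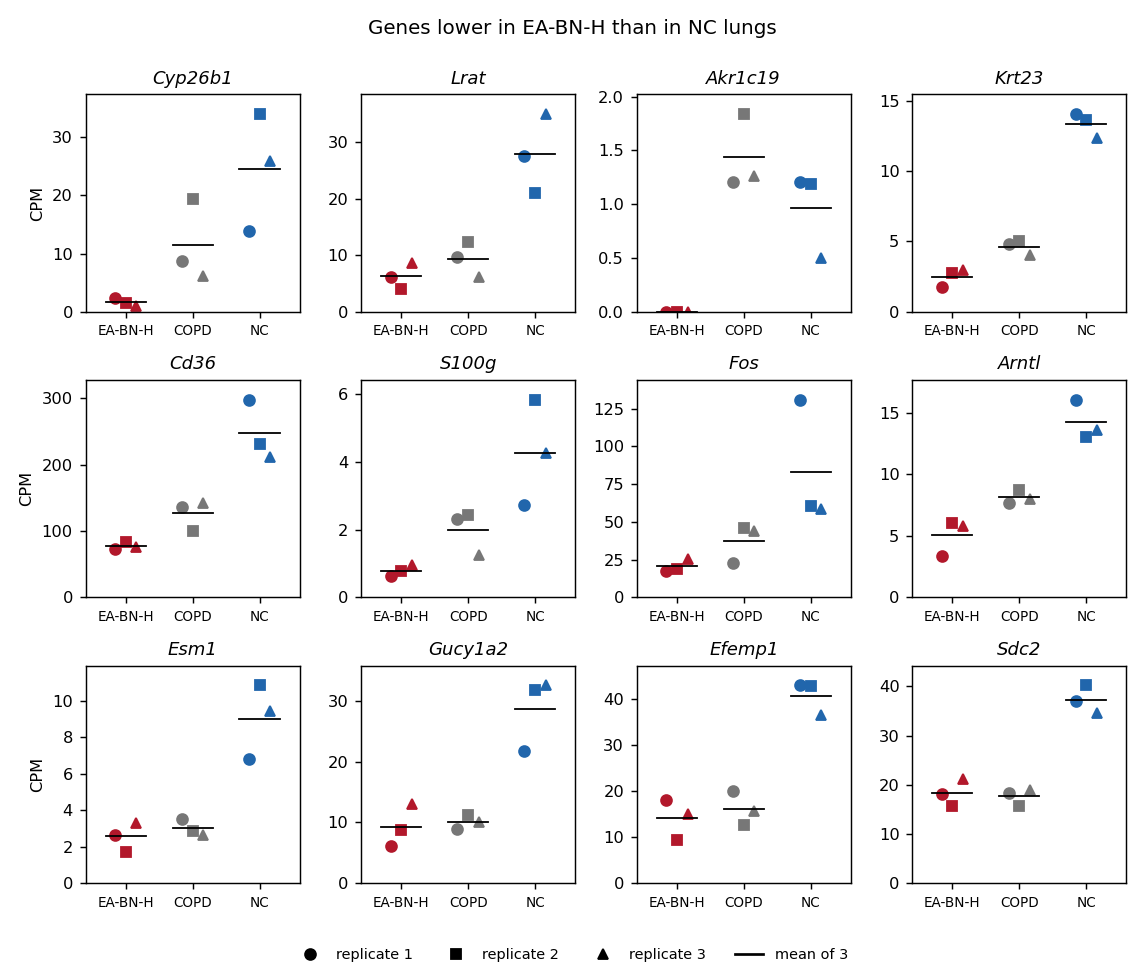
TMM-scaled CPM (vertical axis, from 0, own scale in each panel) of 12 of the 17 genes that fell in EA-BN-H against NC, one symbol per library and bars at the mean of 3, in EA-BN-H, COPD and NC (horizontal axis). In each panel the 3 EA-BN-H libraries lie below the 3 NC libraries, and Akr1c19 has 0 reads in all 3 EA-BN-H libraries.

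Of the remaining genes that fell, Esm1, an endothelial proteoglycan, was at 2.66, 1.73 and 3.32 CPM in EA-BN-H, 3.51, 2.86 and 2.66 CPM in COPD and 6.78, 10.8 and 9.41 CPM in NC (-1.82 ± 0.34, adjusted p = 0.0444). It was the only endothelial marker of 18 called, and NC replicate 1, low in most endothelial markers, was the lowest NC library. Gucy1a2, part of the guanylate cyclase that senses nitric oxide, was at -1.63 ± 0.29, Efemp1, the matrix protein fibulin-3, at -1.53 ± 0.27, and Sdc2, the heparan sulfate proteoglycan syndecan-2, at -1.03 ± 0.19 (adjusted p of 0.0408, 0.0395 and 0.0405). For these 4 genes the values in EA-BN-H and COPD overlapped. Samd12, Tex15, Myo6, Reps2 and Dnajb4 fell by 0.95 to 1.54 on the log2 scale. Pon1, an antioxidant lipoprotein enzyme, just missed the threshold at 33.7, 15.7 and 45.9 CPM in EA-BN-H, 25.4, 21.4 and 22.7 CPM in COPD and 156, 98.8 and 81.0 CPM in NC (-1.82 ± 0.37, adjusted p = 0.0517).

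Genes that passed the adjusted p against NC in EA-BN-H but not in COPD, with an unadjusted p under 0.05 between EA-BN-H and COPD, numbered 10. Over all 18716 genes tested 296 had such a p between EA-BN-H and COPD, fewer than the 936 expected by chance. Of the 10 genes Cyp26b1, Akr1c19, Fos, S100g, Cd36, Tex15, Samd12 and Arntl fell, and Fkbp5 and the gene model Gm36117 rose. Missing the adjusted p in COPD did not mean no change there. Apart from Akr1c19 (0.57), each moved the same way in COPD against NC, at an unadjusted p of 0.00117 to 0.0477 in the same fit. Those that fell had log2 fold changes of -1.15 to -0.66 there, and Fkbp5 and Gm36117 had 0.84 and 0.74. Fkbp5, a co-chaperone of steroid receptors, was at 26.8, 32.5 and 17.7 CPM in EA-BN-H, 14.3, 17.0 and 18.2 CPM in COPD and 7.48, 10.7 and 9.41 CPM in NC (1.48 ± 0.26 against NC, adjusted p = 0.0395). Against COPD its log2 fold change was 0.64 (unadjusted p = 0.0310, adjusted p = 1), and its EA-BN-H and COPD values overlapped. Because these genes were selected in part on EA-BN-H against COPD, their values in that comparison are a description.

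The study names 8 inflammasome assembly genes and the mitochondrially encoded ND genes from its comparison of EA-BN-H with COPD. These lists were therefore chosen on the same libraries and are no independent evidence. The study reports the assembly genes lower and the ND genes higher in EA-BN-H than in COPD, by RNA-seq and by real-time PCR. In that comparison the list medians here were 0.12 and 0.54, with no gene called. Against NC, 4 of the 8 assembly genes rose: Igtp and Gbp5 as given above, Irgm1 at 3.38 ± 0.64 and Irgm2 at 2.98 ± 0.57 (adjusted p of 0.0462 and 0.0477). Myd88, Trim30a, Eif2ak2 and Btk had log2 fold changes of 1.31, 1.80, 0.95 and 1.36 that did not pass the adjusted p (0.0994 to 0.286). At the study thresholds 7 of the 8 assembly genes were higher than NC, against 6.65% of all genes tested. The ND genes, subunits of respiratory complex I, gave no call, with a median log2 fold change of -0.72 in EA-BN-H and of -1.57 in COPD, each against NC. ND2, ND4 and ND5 did not overlap between the groups, at -1.14, -1.15 and -1.35 (adjusted p of 0.126 to 0.195). At the study thresholds 3 of the 7 ND genes were lower than NC, against 1.64% of all genes tested. ND5 was at 206, 111 and 362 CPM in EA-BN-H, 176, 212 and 196 CPM in COPD and 721, 560 and 452 CPM in NC. The summed ND level was 1320, 858 and 2620 CPM in EA-BN-H and 3680, 2110 and 2000 CPM in NC, with the highest EA-BN-H value in the library with the most 7SL RNA. None of 36 nuclear complex I genes was called, and their median was 0.00.

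None of the genes of the proteins that the study measured passed the adjusted p. At the study thresholds Nlrp3, Il1b, Casp1, Tnf and Il6 were higher than NC and Nqo1 was lower. Over all genes tested 6.65% were higher and 1.64% lower at those thresholds. These are RNA levels, while the study measured protein by immunoblotting and ELISA. Txnip, which binds thioredoxin and NLRP3, was at 263, 200 and 239 CPM in EA-BN-H, 249, 218 and 260 CPM in COPD and 319, 289 and 214 CPM in NC (-0.23 ± 0.23, adjusted p = 0.745). Nlrp3, Il1b and Casp1 were at 3.17, 5.19 and 1.55 (adjusted p of 0.0766, 0.0686 and 0.256), with all EA-BN-H values above NC. Il1b was at 12.4, 198 and 12.4 CPM in EA-BN-H, 52.0, 11.1 and 50.2 CPM in COPD and 1.01, 2.94 and 2.22 CPM in NC, so that replicate 2 carried most of its mean. Of the apoptosis genes Bax, a pore-forming activator, was at 0.89 ± 0.22 and Bcl2, which restrains it, at -0.15 ± 0.22 (adjusted p of 0.0872 and 0.849). Among 26 targets of the antioxidant factor Nrf2 none was called and the median was -0.29. Of these targets 9 had positive log2 fold changes, the largest in Slc7a11, at 2.94 ± 0.73 with all EA-BN-H values above NC (adjusted p = 0.0825). Nfe2l2, the gene of Nrf2, was at 0.14 ± 0.25 and Hmox1, the gene of HO-1, at 0.60 ± 0.44 (adjusted p of 0.878 and 0.629). Nqo1, a quinone reductase, was at 2.47, 2.56 and 5.25 CPM in EA-BN-H, 4.63, 1.31 and 1.57 CPM in COPD and 15.2, 11.5 and 6.08 CPM in NC (-1.68 ± 0.55, adjusted p = 0.178).

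**Figure D5:**
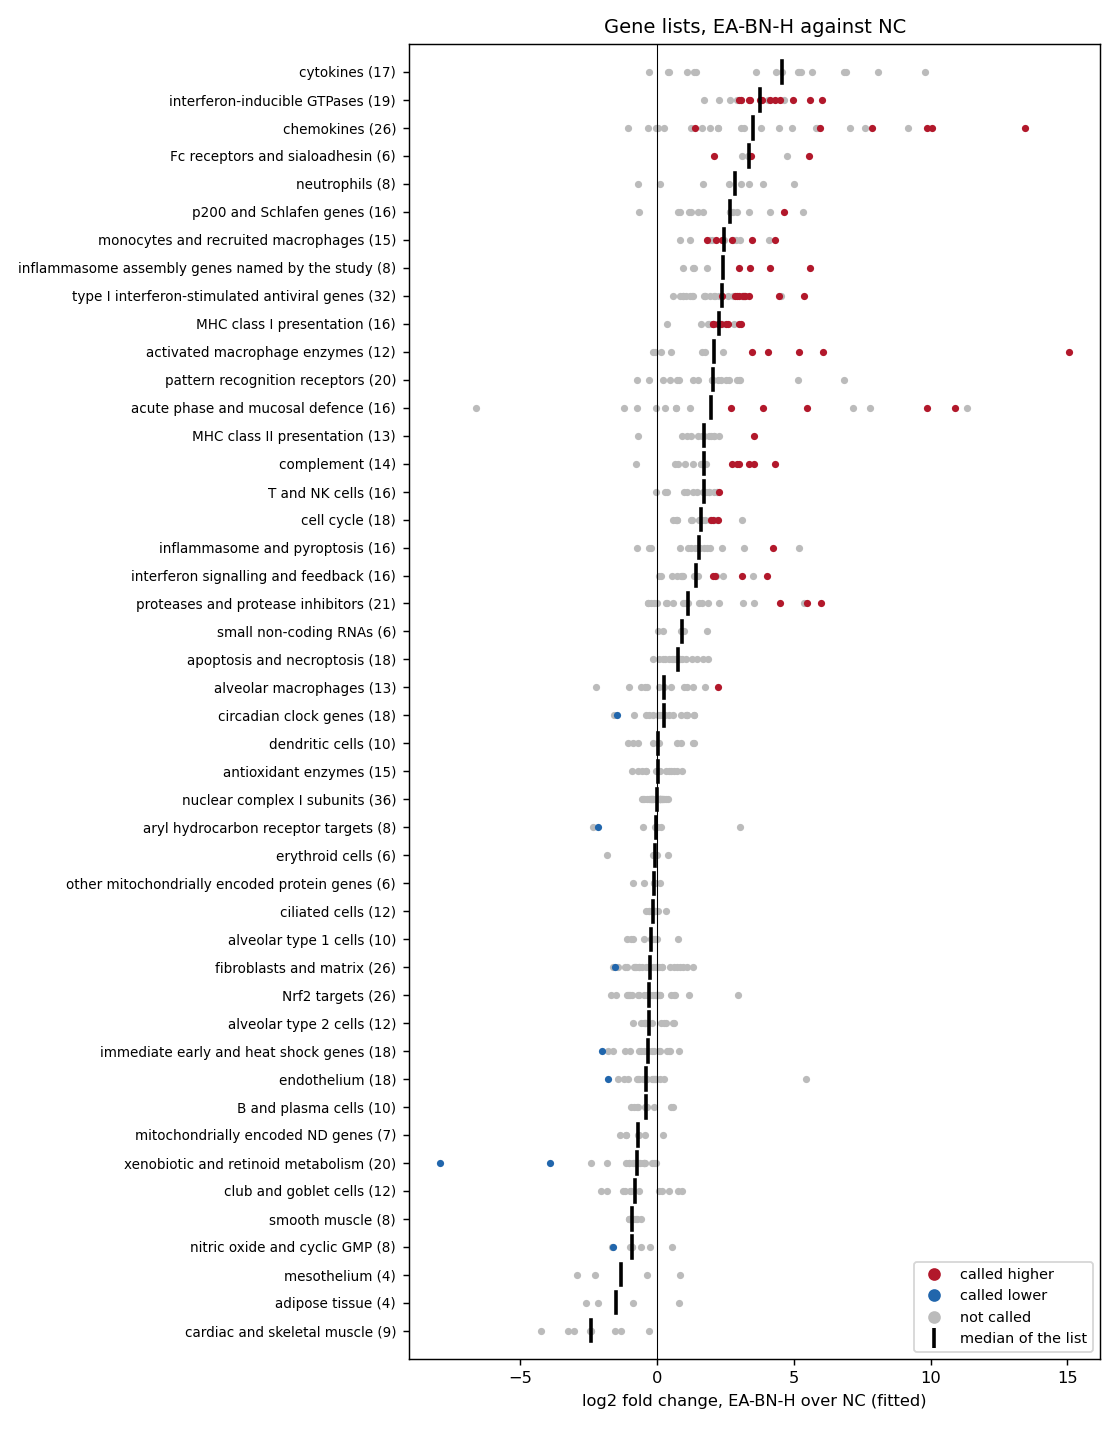
Fitted log2 fold change of EA-BN-H over NC (horizontal axis) for each tested member of 46 gene lists (vertical axis, number of members in parentheses), with called genes in colour and a black bar at each list median. The interferon-inducible GTPases have their median at 3.77 and the cardiac and skeletal muscle markers at -2.42, and fitted values of genes without reads in a group depend on the fit and are not bounds.

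Markers of resident lung cells gave hardly any call. No gene passed among 12 alveolar type 2, 10 alveolar type 1, 12 club and goblet, 12 ciliated and 8 smooth muscle markers, with list medians of -0.30, -0.21, -0.81, -0.16 and -0.92. All 8 smooth muscle markers had negative log2 fold changes. Of these, 4 were below NC in every EA-BN-H library and 2 were lower at the study thresholds, against 8.17% and 1.64% of all genes tested. Of 26 fibroblast and matrix genes only Efemp1 fell. None of 4 adipose, 6 erythroid and 4 mesothelial markers, 15 antioxidant enzymes or 18 apoptosis and necroptosis genes was called, with list medians of -1.51, -0.09, -1.32, 0.03 and 0.76. The lowest list median belonged to 9 cardiac and skeletal muscle markers, at -2.42 with no call. All 9 had negative log2 fold changes, 7 were below NC in every EA-BN-H library and 6 were lower at the study thresholds. Tnnt2, cardiac troponin T, was at 8.36, 4.05 and 5.89 CPM in EA-BN-H, 8.09, 5.72 and 14.8 CPM in COPD and 22.6, 18.8 and 12.5 CPM in NC (-1.56 ± 0.41, adjusted p = 0.0968). The muscle list summed to 101, 40.5 and 94.1 CPM in EA-BN-H, 143, 70.3 and 213 CPM in COPD and 384, 324 and 114 CPM in NC.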

How the data were processed

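Whole-lung RNA-seq gave 1 table of 129299 transcripts of 45777 genes (mm10). The submitters' processing notes list a trimmer (Trimmomatic 0.38), an aligner (HISAT2 2.1.0), a transcript assembler (StringTie 2.1.3b) and DESeq2. Whether counting used strand is not given in the sources used here. The deposited estimated counts are whole numbers that the authors made per transcript, and they were summed by gene. The FPKM and TPM values deposited by the authors, scaled by length and library, served only as alternatives, on log2 scales with pseudocounts of 0.1 and 1.

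EA-BN-H was tested against NC with edgeR 4.0.16 (R 4.3.3; filterByExpr, TMM, robust quasi-likelihood fit, Benjamini-Hochberg adjustment over 18716 genes), with all 9 libraries in 1 fit, after a test on simulated data. Alternatives were DESeq2 1.42.0, limma 3.58.1, other scalings and filters, the replicate block and leaving out each library. The sequences are from RefSeq.

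The gene lists were chosen with earlier results of these data known. Named genes were those the study names, the 3 smallest p per list, the 15 largest rises and 10 largest falls with a mean of at least 50 counts per library, and up to 8 genes that also differed from COPD. Any other gene named was chosen after its values were seen. A few called genes are counted in their lists but not reported here by name.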

Additional observations from a re-analysis of the deposited data

How the results depend on the processing

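All 211 called genes kept their direction in each gene-level setting where they had a value. Their separated values in these same libraries largely fixed that in advance, but the number called depended on the spread that the fit estimates. Scaling by library totals only called 1 gene higher and 4 lower, with 858 and 1236 at the study thresholds. DESeq2, with or without shrunken fold changes, called 999 and 296. With only the 6 libraries compared the counts were 0 and 0, with 2167 genes at an unadjusted p under 0.05. limma on log2(FPKM + 0.1) called 5 and 5, with 706 and 1251 at the study thresholds, limma on log2(FPKM + 1) called 1 and 1, with 407 and 390, and limma on log2(TPM + 1) called 2 and 9, with 219 and 788. The share of higher genes among those at the study thresholds was 36.1%, 51.1% and 21.7% in these 3 fits, against 80.2% as reported. Transcripts in place of genes gave 0 and 0, with 2298 at an unadjusted p under 0.05 and 1685 and 476 at the study thresholds. Without EA-BN-H replicate 2 and without COPD libraries, a setting chosen after seeing the data, 28 and 0 genes were called, 25 of them among the 194, with 598 and 256 at the study thresholds. A fit without robust estimation, also added then, gave 219 and 18. Leaving out 1 library at a time gave 0 to 388 genes higher and 0 to 31 lower, and 745 to 1430 and 277 to 458 at the study thresholds. Apart from what the fewer samples or the other scaling do by construction, the cause was not tested.

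The replicate block called 0 and 0 genes with 9 libraries (2278 at an unadjusted p under 0.05) and 0 and 0 with only the 6 libraries compared (1745). Residuals of libraries with the same replicate number had correlations of -0.243 to 0.127 over 9 pairs. Those of libraries with different numbers ran from -0.229 to 0.275. With 3 libraries a group these residuals cannot show whether a shared number marks a batch. What the number stands for is not given in the sources used here.

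Of the single genes followed, only ND3 changed sign, at 0.21 as reported, -0.31 with library totals only, -0.04 with limma on FPKM and either pseudocount, -0.34 with limma on TPM, -0.33 without EA-BN-H replicate 3 and -0.20 without NC replicate 2. Leaving out 1 library at a time moved it between -0.33 and 1.01. Genes with few NC reads, such as Cxcl10 and Ccl3, are limited by depth.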

Other observations

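The gene with the smallest p of the whole comparison was a gene model, Gm29695, chosen here after its values were seen. It was at 7.12, 7.97 and 5.67 CPM in EA-BN-H, 6.59, 8.87 and 7.56 CPM in COPD and 0.527, 0.576 and 0.715 CPM in NC (log2 fold change 3.52 ± 0.31, adjusted p = 0.00818 by edgeR's quasi-likelihood test). Unlike the interferon genes, its EA-BN-H libraries lay close together. Gm46894 had the same shape at a log2 fold change of 2.39, with 697, 1075 and 926 CPM in EA-BN-H and 161, 177 and 177 CPM in NC (adjusted p = 0.0238). Other called genes outside the lists were also chosen after their values were seen. They included the histone genes H1f1 (2.57) and H3c1 (2.50), Cd274, which encodes the checkpoint ligand PD-L1 (4.02), and the surface protein gene Cd177 (4.33). No list of histone or surface protein genes was tested.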
